A study of Homo sapiens with 8 samples.

Results

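The mesenchymal state of neuroblastoma cells was followed here through 10 genes: the transcription factor genes SNAI2, TWIST1, PRRX1 and FOSL2, the coactivator genes YAP1 and WWTR1, the receptor gene NOTCH2, the cytoskeletal gene VIM, the matrix gene FN1 and the adhesion receptor gene CD44. They were chosen by symbol, with no measured value in the rule, though earlier results of these data were known. All 10 were found among the 26372 symbols of the expression table. Every library was RNA-seq of BE(2)-M17, an established human neuroblastoma line, so all 8 share 1 line. 4 libraries were of untreated cells. The other 4 were of cells exposed to interferon-γ (IFN-γ), a cytokine secreted by T cells and natural killer cells, with a dose of 10 ng/ml and an exposure of 24 h. Values are FPKM, which counts fragments relative to transcript length and library depth, and a mean is given ± SD over 4 libraries. Whether the libraries of 1 group are separate cultures is not stated by the labels, so p-values measure only the spread between libraries, which may be technical.

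Neuroblastoma cells occur in an adrenergic state, held by a circuit of sympathetic-lineage transcription factors, and in a mesenchymal state that resembles neural crest precursors and expresses motility and matrix genes. PRRX1, SNAI2, TWIST1, the AP-1 subunit FOSL2, the TEAD coactivators YAP1 and WWTR1 (TAZ) and the receptor NOTCH2 are among the regulators described for the mesenchymal state. VIM (vimentin), FN1 (fibronectin) and CD44 (a hyaluronan receptor) are commonly read as its markers.

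The adrenergic factors HAND2 (307 ± 2.62 FPKM untreated) and GATA3 (116 ± 3.17) were abundant. Depth, estimated from the steps between low FPKM values, was about 13.3 to 19.5 M fragments per library. Across genes, which are not independent, Pearson's r was at least 0.983 within a group and at most 0.938 between groups. IFN-γ replicate 4 stood apart: relative to the other 3 IFN-γ libraries its log2 values had a median difference of 0.22 in the quintile of genes with the shortest transcripts and -0.14 in that with the longest. The changes of the 10 genes that rest on it, and counts of related genes that move without it, are given with and without it.

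VIM had the highest level in untreated cells, at 284 ± 4.56 FPKM. TWIST1 (68.5 ± 2.25) and NOTCH2 (20.3 ± 0.652) followed, then FOSL2 (6.17 ± 0.393), SNAI2 (5.90 ± 1.08), FN1 (2.57 ± 0.189) and CD44 (1.70 ± 0.119). WWTR1 (0.568 ± 0.137), PRRX1 (0.332 ± 0.129) and YAP1 (0.123 ± 0.0355) were barely detected. FOSL2 overlapped SNAI2 in this order and WWTR1 overlapped PRRX1, and the libraries of the other neighbours were separate. The markers thus differed widely in level: by mean FPKM over all libraries VIM stood at percentile 98.6 of the genes tested, FN1 at 24.5 and CD44 at 17.1. With IFN-γ the order changed in 1 place. SNAI2, at 9.93 FPKM in its lowest library, passed FOSL2, at 9.48 in its highest, and PRRX1 and YAP1 then overlapped.

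**Figure D1:**
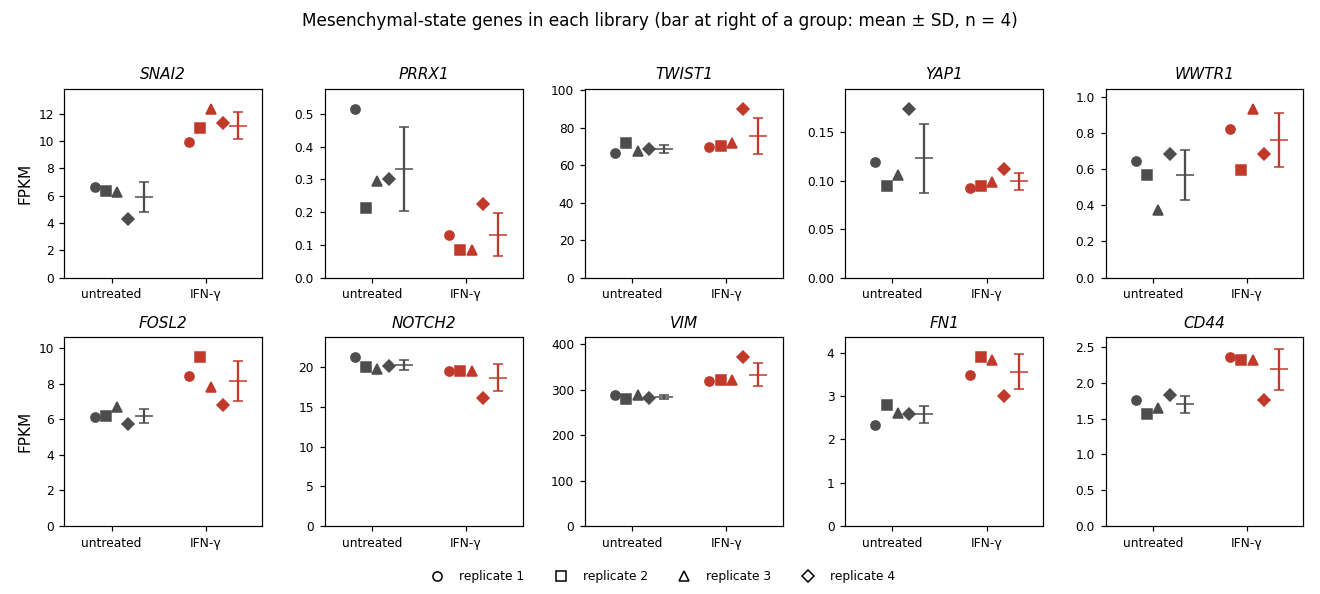
FPKM of each of the 10 genes in the 4 untreated (grey) and 4 IFN-γ (red) libraries, on axes from 0, with the marker shape giving the replicate number and the bar at the right of a group its mean ± SD. SNAI2, FOSL2, VIM and FN1 are higher in every IFN-γ library than in any untreated one, and the diamond of IFN-γ replicate 4 stands apart in TWIST1, NOTCH2, VIM and CD44.

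SNAI2, FN1, FOSL2 and VIM rose with IFN-γ, and none of the 10 genes was called lower. The test was limma on log2(FPKM + 0.1) with Benjamini-Hochberg adjustment and a threshold of 0.05, and 8 of the 10 genes reached the mean of 0.5 FPKM needed to enter it. Of the 13598 genes tested, 22.3% were called, 13.3% higher and 9.05% lower. The median log2 change of the 8 genes was 0.36, against -0.0047 over all genes tested. Changes are IFN-γ minus untreated on the log2(FPKM + 0.1) scale, which understates those of low genes. The groups did not overlap in 4 genes that were higher and in 1 that was lower (NOTCH2), where 28.2% of all genes did not overlap, 15.4% higher and 12.9% lower. In bulk RNA, a shift in the share of cells of 1 kind and a shift in RNA per cell cannot be told apart.

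SNAI2 encodes Slug, a zinc-finger transcriptional repressor that promotes neural crest migration and epithelial-mesenchymal transition. The gene lies on chromosome 8, 48917604 to 48921740, reverse strand (GRCh38, GENCODE release 29, as for every gene position here). The untreated libraries had 6.65, 6.35, 6.30 and 4.29 FPKM and the IFN-γ libraries 9.93, 10.9, 12.4 and 11.3. Each treated library was well above all untreated ones, of which replicate 4 was the lowest. SNAI2 rose by 0.92 on the log2 scale (SE 0.13, limma adjusted p = 0.000581), or 1.89-fold in the means. An exact two-sided permutation test reached p = 0.0286, which is the lowest value 4 against 4 libraries can give. Without untreated replicate 4 the log2 change was 0.78 and still passed (limma adjusted p = 0.000116).

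TWIST1, a basic helix-loop-helix factor of neural crest and mesoderm (chromosome 7, 19020991 to 19117672, reverse strand), had 66.5, 71.6, 67.4 and 68.7 FPKM untreated and 69.8, 70.01, 72.0 and 90.04 with IFN-γ. Replicate 4 alone stood clearly above the untreated range. The log2 change of 0.13 did not pass (95% interval -0.041 to 0.30, limma adjusted p = 0.263), and without that library it was 0.044. Its paralog TWIST2 was listed at 0 in all 8 libraries.

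PRRX1, a homeobox factor able to drive neuroblastoma cells toward the mesenchymal state (chromosome 1, 170662728 to 170739419, forward strand), was below the filter. It had 0.516, 0.212, 0.296 and 0.302 FPKM untreated and 0.130, 0.0857, 0.0857 and 0.224 with IFN-γ, or about 4.87 to 35.03 fragments per library. The treated values were mostly lower, and IFN-γ replicate 4 overlapped untreated replicate 2. The log2 difference was -0.89 (exact permutation p = 0.0571), and with no filter, over 20025 genes, the limma adjusted p was 0.0515. The paralog PRRX2 was more abundant and not called, at 10.7 ± 0.888 FPKM untreated and 11.3 ± 3.15 with IFN-γ.

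YAP1 and WWTR1 encode paralogous coactivators that Hippo kinases keep out of the nucleus, where they act through TEAD factors. YAP1 (chromosome 11, 102110461 to 102233423, forward strand), also below the filter, had 0.119, 0.0941, 0.105 and 0.174 FPKM untreated and 0.0927, 0.0949, 0.0986 and 0.112 with IFN-γ. These values overlap and stand for about 6.80 to 15.1 fragments per library, so a moderate change was not detectable at this depth. WWTR1 (chromosome 3, 149517235 to 149736714, reverse strand) had 0.643, 0.568, 0.377 and 0.686 FPKM untreated and 0.825, 0.594, 0.934 and 0.686 with IFN-γ. The groups overlapped, and its log2 change of 0.37 did not pass (95% interval -0.11 to 0.85, limma adjusted p = 0.256). Inside each library WWTR1 exceeded YAP1, with a log2 ratio of 1.57 ± 0.265 untreated and 2.09 ± 0.271 with IFN-γ. YAP1 lies near the 0.1 added to each value, which thus partly sets the size of these ratios. The ratios differed by 0.52 (exact permutation p = 0.0286, or 0.0857 adjusted over the 3 gene ratios tested), and with a pseudocount of 1 by 0.20.

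FOSL2 (FRA2) is a FOS-family subunit of AP-1 (chromosome 2, 28392448 to 28417312, forward strand). It was at 6.10, 6.19, 6.66 and 5.71 FPKM untreated and at 8.44, 9.48, 7.79 and 6.82 with IFN-γ. The groups were separate, with IFN-γ replicate 4 just above the highest untreated library. FOSL2 rose by 0.39 on the log2 scale (SE 0.096, limma adjusted p = 0.0166) and by 0.47 without IFN-γ replicate 4. Without untreated replicate 4 it missed the threshold (limma adjusted p = 0.0519). Its relative FOSL1 was low and not called, at 0.825 ± 0.130 FPKM untreated and 0.874 ± 0.230 with IFN-γ.

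NOTCH2 is a receptor whose cleaved intracellular part joins RBPJ on DNA (chromosome 1, 119911553 to 120069626, reverse strand). Its levels were 21.3, 20.0, 19.8 and 20.1 FPKM untreated and 19.5, 19.6, 19.5 and 16.1 with IFN-γ. All treated libraries were lower, replicates 1 to 3 by little and replicate 4 by more. The log2 change of -0.12 did not pass (95% interval -0.27 to 0.023, limma adjusted p = 0.215), while the exact permutation p was 0.0286. Without replicate 4 the change was -0.055. Other receptors were scarce, with NOTCH1 at 0.0273 ± 0.0115 and NOTCH3 at 0.326 ± 0.0616 FPKM untreated. The log2 ratio of NOTCH2 to NOTCH1, at 7.33 ± 0.139 untreated and 7.21 ± 0.199 with IFN-γ, is largely set by the 0.1 added to each value, since NOTCH1 is below it, and nothing is read from it. NOTCH2NL, a partial near-identical copy, was listed at 9.81 ± 0.509 and 8.77 ± 1.17 FPKM, so how fragments were divided between the genes is uncertain.

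VIM encodes the intermediate filament of mesenchymal cells and many neural precursors (chromosome 10, 17228259 to 17237593, forward strand). Its FPKM values were 288, 279, 288 and 281 untreated and 319, 321, 321 and 371 with IFN-γ. The untreated libraries formed a narrow band, replicates 1 to 3 of IFN-γ another above it, and replicate 4 stood higher still. VIM rose by 0.23 on the log2 scale (SE 0.056, limma adjusted p = 0.0161), and by 0.17 without that library. Leaving out untreated replicate 2 or 4 ended the call, with limma adjusted p of 0.0544 and 0.0503. Relative to NEFM, a neuronal filament gene, its log2 ratio was 0.92 ± 0.0325 untreated and 1.07 ± 0.234 with IFN-γ (exact permutation p = 0.2). VIM-AS1 overlaps VIM on the other strand and cannot be separated without strand, and it reached 1.16 FPKM at most.

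FN1 encodes fibronectin, a matrix glycoprotein that integrins bind (chromosome 2, 215360440 to 215436172, reverse strand). It had 2.32, 2.78, 2.60 and 2.59 FPKM untreated and 3.49, 3.89, 3.83 and 3.01 with IFN-γ. Every treated library was higher, replicate 4 by the least. FN1 rose by 0.45 on the log2 scale (SE 0.10, limma adjusted p = 0.01), or 1.38-fold in the means, and by 0.52 without that library.

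CD44 encodes a surface receptor for hyaluronan with many splice forms (chromosome 11, 35138870 to 35232402, forward strand). It had 1.75, 1.57, 1.64 and 1.83 FPKM untreated and 2.35, 2.32, 2.31 and 1.76 with IFN-γ. Replicates 1 to 3 of IFN-γ were close together above every untreated library, and replicate 4 lay inside the untreated range. The log2 change of 0.34 did not pass (SE 0.12, 95% interval 0.075 to 0.60, limma adjusted p = 0.0677). Without replicate 4 it was 0.44 and passed (limma adjusted p = 0.00855), as it did in limma without the trend (0.0465). That made 5 of the 8 genes higher and none lower without replicate 4, where 28.3% of all genes were called, 15.8% higher and 12.5% lower.

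**Figure D2:**
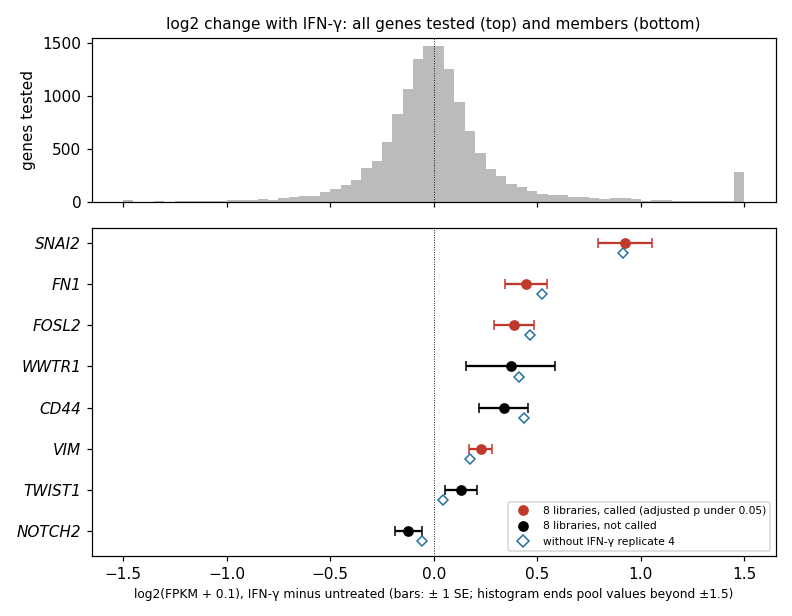
Difference of log2(FPKM + 0.1), IFN-γ minus untreated, for all genes tested (histogram, whose end bins pool values beyond the axis) and for the 8 members tested (points ± 1 SE, red where called), with open diamonds for values without IFN-γ replicate 4. SNAI2 is farthest right at 0.92, and the others lie between -0.12 and 0.45.

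Transcript length went with the position of IFN-γ replicate 4 among the 8 genes tested. Its log2 difference from the mean of the other IFN-γ libraries was 0.35 in TWIST1 (longest annotated transcript 1666 nt), 0.21 in VIM (2666 nt) and 0.036 in SNAI2 (2828 nt). It was -0.15 in WWTR1 (5030 nt) and -0.39 in CD44 (5732 nt). In FOSL2 (6708 nt), FN1 (9171 nt) and NOTCH2 (11389 nt) it was -0.32, -0.30 and -0.28. Of these 8 genes tested, the 3 with the shortest transcripts were thus higher in that library and the 5 with the longest lower. The 2 genes below the filter were higher in it, PRRX1 (4284 nt) by 0.70 and YAP1 (5398 nt) by 0.12, at few fragments. With a lowess trend on transcript length removed from each library, an alternative chosen after seeing the data, SNAI2, FN1, FOSL2 and VIM were again called and CD44 was called too (log2 change 0.37, limma adjusted p = 0.0289).

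**Figure D3:**
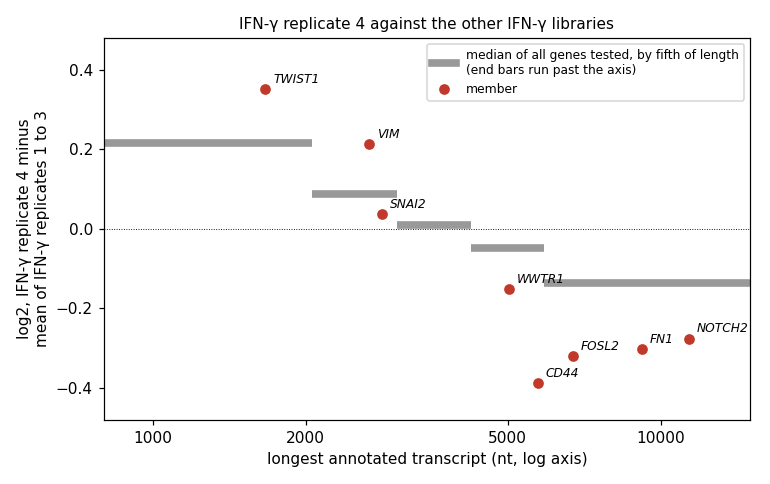
log2 difference of IFN-γ replicate 4 from the mean of IFN-γ replicates 1 to 3 against the longest annotated transcript (nt, log axis) for the 8 members tested (red points) and as medians of all genes tested by length (grey bars). TWIST1, VIM and SNAI2 lie above 0, and WWTR1, CD44, FOSL2, FN1 and NOTCH2 below it.

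Of the 8 genes tested, all but SNAI2 and VIM had a call that depended on scaling. SNAI2, FN1, FOSL2 and VIM were called under median-of-ratios scaling and quantile normalization, though the latter reduced the change of VIM to 0.11. TPM shifted the median gene by 0.79 on the log2 scale. The small nucleolar RNA SNORD3A held 5.97 to 57.9% of summed FPKM in untreated libraries and was listed at 0 with IFN-γ. In TPM all 8 genes were called higher, although NOTCH2, at 0.68, lay below that shift. In TPM computed without short RNA genes SNAI2 (0.84) and VIM (0.14) were called, and FN1 (0.36, limma adjusted p = 0.0821) and FOSL2 (0.30, 0.119) were not.

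**Figure D4:**
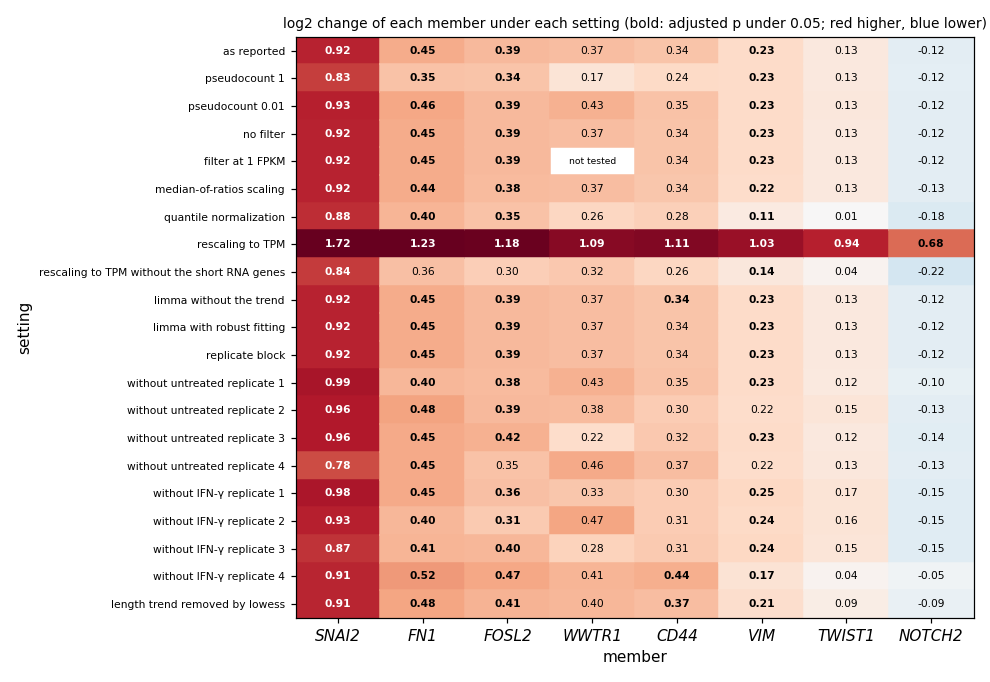
log2 change of each member tested (columns) under each setting (rows), in red for higher and blue for lower, with bold type for a limma adjusted p under 0.05. SNAI2 is bold under every setting shown, and NOTCH2 is positive only after rescaling to TPM.

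RefSeq's promoter table (GRCh38.p14) held windows of 250 bases before and 50 after a start for 8 of the 10 genes, with 2 for WWTR1, and none for SNAI2 or TWIST1. The parts free of annotated exons are shown for the genes that rose, VIM (chr10:17227991-17228240, forward strand), FOSL2 (chr2:28392608-28392801, forward strand) and FN1 (chr2:215436173-215436252, reverse strand), 5′ to 3′, with the only motif match in them in capitals.
VIM: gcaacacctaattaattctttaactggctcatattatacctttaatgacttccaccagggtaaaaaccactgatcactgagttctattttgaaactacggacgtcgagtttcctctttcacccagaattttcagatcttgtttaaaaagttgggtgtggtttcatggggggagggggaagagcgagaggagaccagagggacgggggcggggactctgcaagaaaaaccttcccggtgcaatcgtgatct
FOSL2: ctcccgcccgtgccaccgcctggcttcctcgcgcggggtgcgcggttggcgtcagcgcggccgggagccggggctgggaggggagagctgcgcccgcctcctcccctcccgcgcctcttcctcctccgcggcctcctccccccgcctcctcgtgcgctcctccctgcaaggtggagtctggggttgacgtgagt
FN1: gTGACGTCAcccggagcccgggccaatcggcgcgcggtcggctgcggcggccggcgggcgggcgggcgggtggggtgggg
The capitals in FN1 are a cAMP response element (TGACGTCA), at base -183 from the start, a motif searched for after the sequences were seen and held by 1.85% of the 35116 promoters in the table. The gamma-activated site (TTCNNNGAA) was in none of the 9 windows and in 7.66% of all promoters. The core of the interferon-stimulated response element was in none of them, against 3.57%, and the same held for the SNAI-type E-box (CACCTG, 20.6%) and the TATA box core (TATAAA, 11.5%). FOSL2 held an AP-1 site (TGANTCA, 7.71% of promoters) at base 5 after its start, and YAP1 a TEAD site (GGAATG, 14%) at base -162. Both strands were searched, and the 3 matches lie in different genes. A match is a description of letters, and no match says only that these letters are not in the window.

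The partners of these genes were read from lists of related genes. Of all genes tested 13.3% were called higher and 9.05% lower, or 15.8% and 12.5% without IFN-γ replicate 4. Counts in these lists, and in the marker lists below, are descriptions and were not tested against those shares. Among 18 other mesenchymal-state transcription factors tested, 6 rose (ELK4, ID1, MAFF, RUNX1, TCF7L2 and ZNF217) and 1 fell (TBX18), with a median log2 change of 0.055. The call of TBX18 held in 8 of 20 alternatives. RUNX1 rose from 0.0958 ± 0.0724 to 1.29 ± 0.225 FPKM and TCF7L2, a Wnt-pathway factor, from 9.32 ± 0.886 to 16.6 ± 0.398. Like DES and HAS2 in the lists that follow, RUNX1 passed the filter only through its IFN-γ values. Of 17 adrenergic factors, 5 rose, among them PHOX2A, HAND1, TBX2 and KLF13, and 5 fell (KLF7, SATB1, TFAP2B, INSM2 and HEY1). Without IFN-γ replicate 4 the counts were 7 higher and 1 lower for the mesenchymal factors and 7 higher and 5 lower for the adrenergic ones. TBX2, a T-box factor, rose from 12.1 ± 0.857 to 18.1 ± 1.70 FPKM, and TFAP2B fell from 112 ± 1.54 to 69.2 ± 1.37. In TPM these fallen factors, and of the lists that follow CDH2, CDH11, DLC1, DOCK5, NUMB, NEFL, INA, SDC4, RDX, VCAN and LTBP3, had positive changes, all below the shift of the median.

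Around SNAI2 and TWIST1, 1 of 9 factors and junction genes of epithelial-mesenchymal transition rose (ZEB1) and 3 fell (FOXC1, CDH2 and CDH11). ZEB1 rose from 28.7 ± 0.518 to 34.6 ± 0.723 FPKM, CDH2 (N-cadherin) fell from 15.4 ± 0.286 to 12.4 ± 0.606, and SNAI1, the relative of SNAI2, was not called at 11.2 ± 0.273 and 10.9 ± 1.10. Around YAP1 and WWTR1, 4 of 18 Hippo and TEAD genes rose (STK3, MOB1A, AMOT and TEAD4) and none fell, or 6 and none without IFN-γ replicate 4. The scaffold gene AMOT rose from 1.41 ± 0.212 to 3.95 ± 0.321 FPKM, and TEAD1 was not called at 58.0 ± 1.41 and 62.9 ± 4.96. Of 13 YAP/TAZ target genes tested none was called higher and 3 fell (AXL, DLC1 and DOCK5), with 0 higher and 4 lower without IFN-γ replicate 4. AXL, which passed the filter only through its untreated values, was at 0.666 ± 0.0939 FPKM untreated and 0.359 ± 0.0340 with IFN-γ. NUAK2, a target gene below the filter, was at 0.200 ± 0.0413 FPKM untreated and 0.744 ± 0.114 with IFN-γ, with separate groups. The groups of the other listed target genes below the filter overlapped. CYR61 was at 0.569 ± 0.181 and 0.649 ± 0.134 FPKM and CTGF was below the filter.

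Beside FOSL2, 3 of 11 AP-1 subunit genes rose and none fell, with 3 higher and 1 lower without IFN-γ replicate 4. JUN, a dimer partner of FOSL2, rose from 8.42 ± 0.545 to 10.7 ± 0.459 FPKM, BATF3 from 1.08 ± 0.277 to 7.06 ± 0.939 and ATF3 from 1.82 ± 0.172 to 3.72 ± 0.266. In the Notch pathway 4 of 20 genes rose (DLL3, DLK1, APH1A and PSENEN) and 2 fell (HEY1 and NUMB), with 5 higher and 2 lower without that library. HEY1, a Notch target gene, fell from 9.45 ± 0.237 to 5.73 ± 0.689 FPKM. RBPJ, at 35.2 ± 1.42 and 35.5 ± 0.529, and HES1, at 4.30 ± 0.914 and 4.25 ± 0.677, were not called.

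Of 12 filament and lamin genes other than VIM, 4 rose (PRPH, NES, DES and LMNA) and 2 fell (NEFL and INA). Without IFN-γ replicate 4, 7 were called higher and 2 lower. PRPH, the peripherin of peripheral neurons, rose from 148 ± 4.67 to 322 ± 9.19 FPKM, NES, the nestin of neural precursors, from 31.3 ± 1.116 to 51.0 ± 6.65, and DES, the muscle filament desmin, from 0.0917 ± 0.0482 to 4.53 ± 0.552. For FN1, 6 of 13 receptor and assembly genes rose (ITGB1, ITGA4, TGM2, VCL, PTK2 and ILK) and 1 fell (SDC4), or 6 and 2 without IFN-γ replicate 4. TGM2, a transglutaminase that binds fibronectin, rose from 0.603 ± 0.0620 to 6.52 ± 0.651 FPKM and the integrin gene ITGA4 from 4.11 ± 0.254 to 7.01 ± 0.484. ITGB1 rose from 129 ± 1.24 to 143 ± 5.91, though under quantile normalization its log2 change was -0.012 and that of LMNA -0.0080. ITGA5 was below the filter at 0.0878 ± 0.0484 FPKM untreated. Also below it, with separate groups, were TNC and ITGB3. TNC was at 0.0413 ± 0.0212 FPKM untreated and 0.822 ± 0.0496 with IFN-γ, and ITGB3 at 0.456 ± 0.0911 and 0.270 ± 0.0816. For CD44, 2 of 9 partner genes rose (HAS2 and EZR) and 2 fell (RDX and VCAN), and EZR, which ties CD44 to actin, rose from 32.6 ± 0.752 to 37.0 ± 0.358 FPKM. Without IFN-γ replicate 4, 1 of the partners was called higher and 3 lower. Of 13 TGF-β pathway genes none rose and 1 fell (LTBP3), or 1 and 2 without IFN-γ replicate 4. The median log2 changes of these partner lists lay between -0.16 (CD44 partners) and 0.099 (filaments and lamins), against -0.0047 over all genes tested. Those of the markers of other cell types were higher, at 0.66 for 5 fibroblast, 0.21 for 3 Schwann cell and 0.27 for 1 immune marker. The median of 12 neuroblastoma identity genes was 0.074, inside the range of the partner lists.

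**Figure D5:**
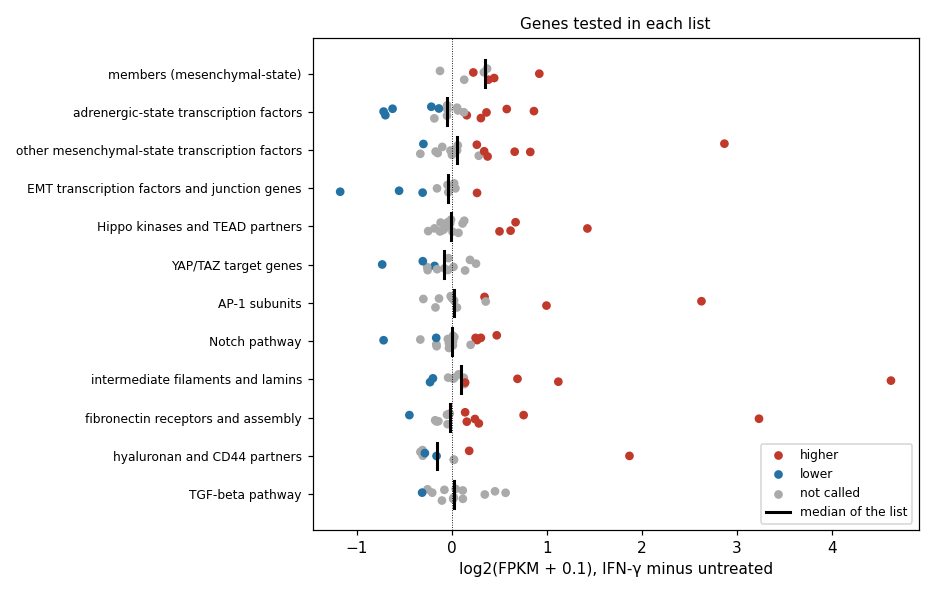
log2 change with IFN-γ of every gene tested among the members and in each list of related genes, red for called higher, blue for called lower and grey for not called, with a black bar at the median of the list. The members have a median of 0.36, and the points farthest right are DES, TGM2, RUNX1 and BATF3 in other lists.

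Neuroblastoma identity genes were called higher with IFN-γ in 5 of 12 tested, with 7 not called. The summed level of the list was 1669 to 1686 FPKM untreated and 1890.0 to 1974 with IFN-γ. Much of that rise was CHGA, at 481 ± 11.4 FPKM untreated and 641 ± 13.1 with IFN-γ. HAND2, at 307 ± 2.62 and 297 ± 4.82, and GATA3, at 116 ± 3.17 and 112 ± 3.65, were among those not called. Of 5 fibroblast markers tested 3 rose (LUM, PDGFRB and ACTA2), PDGFRB from 8.20 ± 0.442 to 21.0 ± 1.52 FPKM. With IFN-γ replicate 4 left out, 3 higher and 1 lower were called, and 6 higher and 1 lower of the identity genes. The 10 listed fibroblast markers summed to 227 to 234 FPKM untreated, 239 to 243 in IFN-γ replicates 1 to 3 and 300.3 in replicate 4. Most of the sum was DCN, at 139.9 ± 4.403 FPKM untreated and 143 ± 22.3 with IFN-γ, and THY1, at 59.8 ± 2.47 and 54.9 ± 2.38, neither called. Of the markers near 0, COL1A2 and FAP were listed at 0 in untreated libraries and reached at most 0.0373 and 0.0180 with IFN-γ, while COL3A1 was at 0.0995 ± 0.0284 and 0.284 ± 0.0179 and PDGFRA at 0.0935 ± 0.0162 and 0.156 ± 0.0367, both higher in every IFN-γ library than in any untreated one. Schwann cell markers (3 of 8 tested) summed to 60.4 to 62.2 and 61.6 to 64.6 FPKM. Nearly all of that sum was MPZL1, at 58.9 ± 0.752 and 60.0 ± 1.10. S100B was at 0.914 ± 0.155 and 1.10 ± 0.336, and FOXD3 and CDH19 were listed at 0 throughout. Immune markers (1 of 9 tested) summed to 1.01 to 1.38 and 1.28 to 1.67 FPKM, with CD3E and CD3D at 0. Endothelial markers (none of 6 tested) summed to 0.524 to 0.665 and 0.212 to 0.529. No Schwann or immune marker was called. The part of other cells in the changes of SNAI2, FN1, FOSL2 and VIM was not tested.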

How the data were processed

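RNA was extracted with TRIzol, depleted of ribosomal RNA, built into libraries with the NEBNext Ultra kit, which does not record strand, and read as pairs on a HiSeq, per the labels' protocols. The deposited table gives FPKM per gene and library. The submitters' processing notes name TopHat2, Cuffdiff and hg38 as what the authors used, without versions. The annotation and any scaling across libraries: not given in the sources used here.

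Deposited FPKM was used as log2(FPKM + 0.1), for genes averaging 0.5 FPKM or more. Groups were compared with limma 3.58.1 in R 4.3.3 (mean-variance trend, two-sided, Benjamini-Hochberg over the genes tested). Exact permutation tests, two-sided, served each member and 3 ratios. Pseudocounts of 1 and 0.01, filters of 0 and 1 FPKM, other scalings and limma settings, a replicate block and left-out libraries were tried. The members and the 16 gene lists were chosen with earlier results of these data known. The rule for named genes took the members, a set list of pathway genes, and per list up to 3 called genes of largest change with at least 1 FPKM in the higher group, or up to 2 of highest level where fewer than 2 were called. Genes named outside it to complete a count, and TWIST2, PRRX2, NOTCH2NL, VIM-AS1, SNORD3A, NUAK2, COL1A2, COL3A1, PDGFRA, DCN, THY1, FAP, FOXD3, CDH19, CD3E and CD3D, were chosen after their values were seen. The same holds for TNC and ITGB3.

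Fragment numbers are estimates. Replicates differed by 1.59 to 5.16 times counting variance, so none was merged. Symbols matched 1 gene of GENCODE release 29 in 90.05% of cases. On simulated data of the same size (13598 genes), 50 genes were changed at each fold and noise was drawn independently for each gene. The test there recovered 38% of changes of 1.25-fold, 72% at 1.5, 90% at 2 and 100% at 4, and 5.06% of calls were false. In the real data 22.3% of genes were called, and IFN-γ replicate 4 had a deviation shared by many genes. Neither was simulated, so these rates do not carry over to the real comparison.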

Additional observations from a re-analysis of the deposited data

Results flagged for a closer look

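The 10 genes in each group make 20 sets of 4 libraries, and in 5 sets the lowest or highest library was farther from the rest than Dixon's 95% critical value allows, which chance gives in about 1 in 20. IFN-γ replicate 4 was that library in 4 sets. TWIST1 was at 90.04 FPKM there, against 69.8 to 72.0 in the other IFN-γ libraries, and VIM at 371, against 319 to 321. NOTCH2 was at 16.1, against 19.5 to 19.6, and CD44 at 1.76, against 2.31 to 2.35. The remaining set was SNAI2 in untreated cells, where replicate 4 was at 4.29 FPKM against 6.30 to 6.65.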

How the results depend on the processing

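Of the members, 4 were called higher, 8 in TPM, 2 in TPM lacking short RNA genes and 2 to 5 with 1 library left out, fewest without untreated replicate 4 and most without IFN-γ replicate 4. Over all genes, 1809 were higher and 1230 lower, which became 1470 and 2564 under quantile normalization, 9442 and 20 in TPM, and 1144 and 1780 in TPM lacking short RNA genes. The WWTR1 to YAP1 difference was 0.20 (exact p = 0.0571) with a pseudocount of 1 and 0.40 to 0.61 with 1 library left out (exact p 0.0286 to 0.0857). The NOTCH2 to NOTCH1 difference was -0.12 (exact p = 0.0286) with a pseudocount of 1. The cause of these shifts was not tested.

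Whether replicate numbers pair the libraries is not stated by the labels. Same-number correlations of deviations from the group mean were weak, at -0.027 to 0.079, and cannot settle it. The best partner had the same number for untreated replicates 2 and 4, and another number for replicates 1 and 3. With the replicate block 1639 genes were higher and 1017 lower, 4 members were called higher, 6 other genes named here lost their call (ITGB1, HAND1, SATB1, TBX18, AXL, DLL3), and the WWTR1 to YAP1 difference of 0.52 had an exact p of 0.125, the smallest possible.

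Of 1547 values of 78 genes, 43 changed sign, 78 lost a call and 29 gained one. Calls were lost most often for TBX18 (11 of 20 alternatives), ITGB1 (9), HAND1 (9), SATB1 (9), DLL3 (7), RDX (5), and DOCK5 (5). Those that changed sign were, in TPM, NOTCH2 0.68, HES1 0.78, SNAI1 0.75, ZEB2 0.64, CDH2 0.49, GATA3 0.76, HAND2 0.76, HEY1 0.077, TFAP2B 0.11, CDH11 0.19, DOCK5 0.49, DLC1 0.62, SDC4 0.34, VCAN 0.52, RDX 0.64, LTBP3 0.48, TGFBR1 0.70, KLF7 0.59, SATB1 0.67, INSM2 0.18, TBX18 0.47, NUMB 0.64, NEFL 0.58 and INA 0.61, all below the shift of 0.79 in the median. Under quantile normalization they were RBPJ -0.081, FOSL1 -0.026, NEFM -0.098, ITGB1 -0.012, MPZL1 -0.085 and LMNA -0.0080, and in TPM lacking short RNA genes RBPJ -0.079, FOSL1 -0.030, NEFM -0.020, SMAD3 -0.049 and MPZL1 -0.067. With 1 library left out the ranges spanned 0 for RBPJ (-0.0083 to 0.030), CYR61 (-0.015 to 0.33), HES1 (-0.11 to 0.13), SNAI1 (-0.10 to 0.0012), FOSL1 (-0.078 to 0.19), and SMAD3 (-0.0068 to 0.12). Low fragment numbers limit PRRX1, YAP1 and WWTR1.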
